A study of Mus musculus with 9 samples.

Results

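Matrix metalloproteinases (MMPs), ADAMTS proteases and their tissue inhibitors (TIMPs) were examined in mouse ear skin 6 h after a chemical allergen, an irritant or the vehicle was put on the ear. Every probe set annotated with a single gene whose symbol begins with Mmp and a digit, with Adamts, or with Timp and a digit was taken. This gave 78 probe sets of 42 genes, out of 34945 single-gene probe sets of 18193 genes on the array. They comprised 18 Mmp genes, 15 Adamts genes, 5 Adamtsl genes and 4 Timp genes. The Adamtsl symbols fall under the rule by their spelling. Their products resemble ADAMTS proteins but lack the protease domain.

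MMPs and ADAMTS proteases are zinc enzymes made as inactive precursors, which cut collagens, proteoglycans and other matrix proteins once the prodomain is removed. TIMPs bind their active sites and block them. In skin these enzymes take part in wound repair, leukocyte entry and remodelling of the dermis, and several are induced by interleukin-1, TNF and AP-1 transcription factors.

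The DNFB group received dinitrofluorobenzene, a hapten that binds skin proteins, and the BAC group received benzalkonium chloride, a quaternary ammonium surfactant. The vehicle group received acetone and olive oil. All 3 groups were C57BL/6 mice with 3 arrays each, the labels name no other allele or agent, and neither age nor dose was found in them. Both chemicals were put on right ears and the vehicle on left ears, so side and treatment cannot be told apart. The labels number the replicates without saying that they are separate animals, or whether right and left ears came from the same animals. A p-value therefore speaks only of variation among these 9 samples, part or all of which could be technical.

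Each array gave 1 MAS5 signal per probe set, a brightness on a linear scale, with a median of 71.2 to 86.3 and a 40th percentile of 46.2 to 60.7. All 7 basal keratinocyte, 8 differentiated keratinocyte and 12 fibroblast markers reached the 40th percentile in at least 1 array. The ratio of 3' to 5' Gapdh control signal was 0.841, 1.36 and 0.943 in DNFB replicates 1 to 3, 0.917 to 0.932 in BAC arrays and 0.856 to 0.880 in vehicle arrays. DNFB replicate 2 stood apart in this ratio. The same ratio for actin was 1.09, 1.28 and 1.23 in DNFB replicates 1 to 3 and 1.18 to 1.22 in BAC arrays, against 1.05 to 1.10 in vehicle arrays. All BAC arrays and 2 of 3 DNFB arrays lay above every vehicle array, and the part of this in the results was not tested. In whole skin, fewer cells of a type and less RNA per cell cannot be told apart.

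A gene was represented by its brightest probe set and tested if that signal lay above the array's 40th percentile in at least 3 of 9 arrays. Of the 42 genes 32 passed. The other 10 were Mmp1a, Mmp1b, Mmp7, Mmp13, Mmp20, Adamts6, Adamts7, Adamts18, Adamts19 and Adamts20. Their group means lay between 9.25 and 68.6 signal units, and background could not be told from low signal there. Mmp11 and Mmp17 passed with the fewest arrays, 3 each. Log2 changes are on the scale of log2(signal + 16), with the standard error (SE) of a limma fit to all 14122 tested genes, and adjusted p-values are Benjamini-Hochberg values over those genes. A change was called at an adjusted p under 0.05.

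After DNFB 9 of the 32 tested genes rose and none fell: Adamts1, Adamts4, Adamts9, Mmp2, Mmp3, Mmp8, Mmp9, Timp1 and Timp3. That is 28.1% of the tested members, while 13.8% of all tested genes were called, 6.76% higher and 7.08% lower. The DNFB and vehicle arrays did not overlap for 11 members, all higher, and for 30.9% of all tested genes, 15.2% being higher. After BAC 8 rose and none fell: Adamts1, Adamts4, Adamts5, Adamts9, Mmp8, Mmp9, Timp1 and Timp3. That is 25% of the tested members, while 14.2% of all tested genes were called, 6.59% higher and 7.64% lower. The BAC and vehicle arrays did not overlap for 12 members, all higher, and for 34.1% of all tested genes, 14.9% being higher. Both comparisons use the same vehicle arrays. Between the chemicals, 4 genes were lower after DNFB than after BAC, Adamts1, Adamts4, Mmp8 and Mmp19, and none was higher. That is 12.5% of the tested members, while 6.80% of all tested genes were called, 3.14% higher and 3.66% lower. Arrays did not overlap for 11 members, 10 lower and 1 higher, and for 25.2% of all tested genes, 11.4% being lower. The median log2 change of the tested members was 0.21 after DNFB, 0.31 after BAC and -0.14 for DNFB against BAC. Over all tested genes it was 0.00, -0.03 and 0.03. These shares and medians describe the genes that passed the filter only.

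**Figure D1:**
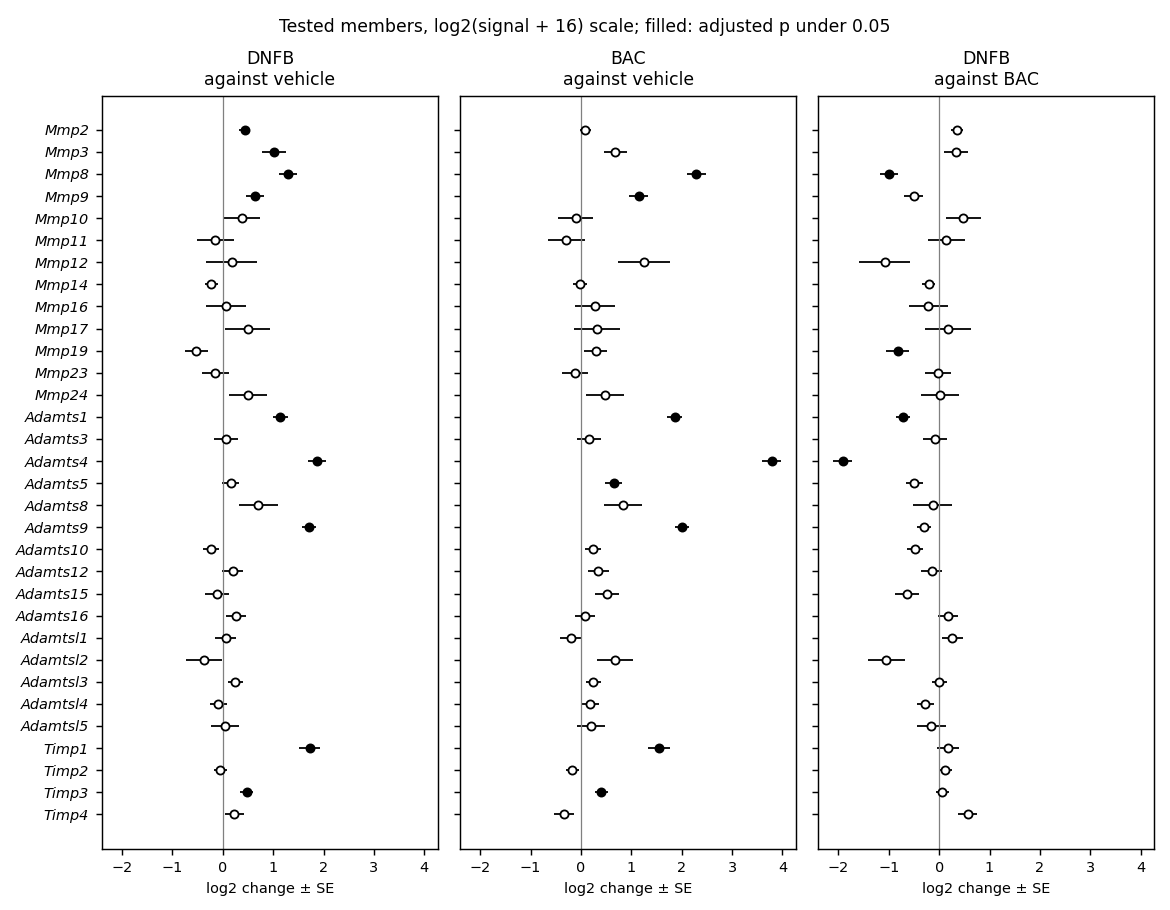
Log2 change with SE of the 32 tested members, with DNFB against vehicle on the left, BAC against vehicle in the middle and DNFB against BAC on the right. Filled circles have an adjusted p under 0.05 and open circles do not. Adamts4 has the widest changes, 1.87 after DNFB and 3.78 after BAC, and the 13 tested Mmp genes run between -0.53 and 1.29 after DNFB.

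Among the ADAMTS proteases, Adamts4 (Entrez gene 240913) encodes aggrecanase-1, which cuts the large proteoglycans aggrecan and versican. Its signal was 415, 252 and 379.7 in DNFB arrays, 1136, 1258 and 1651 in BAC arrays, and 82.9, 85.2 and 77.5 in vehicle arrays. The 3 groups did not overlap. Adamts4 rose after DNFB by 1.87 ± 0.19 on the log2 scale (SE, limma adjusted p = 6.96e-06) and after BAC by 3.78 ± 0.19 (adjusted p = 4.24e-09). The change after DNFB was smaller than after BAC by a log2 difference of -1.91 ± 0.19 (adjusted p = 1.29e-05). The other Adamts4 probe set read 188 ± 37.8 after DNFB, 688 ± 119.6 after BAC and 68.9 ± 23.5 with vehicle (SD, n = 3 each). Fitted among all probe sets, it was called in all 3 comparisons, at 1.29, 3.08 and -1.79.

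Adamts1 (Entrez gene 11504) also cuts versican and aggrecan, and its product restrains blood vessel growth. It read 2131, 1919.5 and 1521 in DNFB arrays, 2805, 3215 and 3090.1 in BAC arrays, and 877, 943 and 676 in vehicle arrays. Every BAC array lay above every DNFB array, and every DNFB array above every vehicle array. The log2 change was 1.14 ± 0.14 after DNFB (limma adjusted p = 6.01e-05) and 1.86 ± 0.14 after BAC (adjusted p = 3.38e-07). DNFB lay below BAC by -0.72 ± 0.14 (adjusted p = 0.00643). This last call was lost without the intensity trend of the fit (adjusted p = 0.0683).

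Adamts9, a further versican-cleaving protease, read 555, 636 and 596 in DNFB arrays, 796, 735 and 673 in BAC arrays, and 147, 186 and 183 in vehicle arrays. Each treated array was above every vehicle array. It rose by 1.71 ± 0.14 after DNFB (limma adjusted p = 8.55e-07) and by 2.001 ± 0.14 after BAC (adjusted p = 1.14e-07). The difference between the chemicals, -0.29 ± 0.14, did not pass (adjusted p = 0.225), with a 95% interval of -0.58 to -0.0036 before adjustment, although every DNFB array lay below every BAC array. Its probe sets disagreed on that difference. Its second probe set averaged 211 ± 6.78 after DNFB, 509.9 ± 49.8 after BAC and 47.3 ± 16.4 with vehicle (SD, n = 3 each), and its log2 difference of -1.21 was called among all probe sets (limma adjusted p = 0.00265). The remaining probe set was called after BAC only (1.32, adjusted p = 0.0122). With the mean of the gene's probe sets the difference was -0.67 (adjusted p = 0.0225).

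Adamts5 encodes aggrecanase-2. Its signal was 421, 655 and 669.6 in DNFB arrays, 778, 725 and 932 in BAC arrays, and 556, 484 and 491 in vehicle arrays. The DNFB arrays overlapped the vehicle arrays and lay below the BAC arrays. It rose after BAC by 0.65 ± 0.17 (limma adjusted p = 0.0160). Its change was 0.16 ± 0.17 after DNFB (adjusted p = 0.610; 0.04 to 0.37 with any 1 DNFB array left out), and DNFB against BAC gave -0.49 ± 0.17 (adjusted p = 0.0926). A second probe set was called after BAC (0.72) and for DNFB against BAC (-0.75, adjusted p = 0.00862). The other tested probe set was called in neither (0.22 and -0.35). The call after BAC was lost without BAC replicate 3 (0.55, adjusted p = 0.0791) or vehicle replicate 3 (0.62, adjusted p = 0.0542). It was also lost with arrays centred on their median (0.56, limma adjusted p = 0.0740) and without the intensity trend (0.0675). Averaging all 4 probe sets gave 0.33 (adjusted p = 0.227). That mean includes a probe set too dim to be tested, below the 40th percentile in every array. Its group means were 14.8 after DNFB, 5.59 after BAC and 10.2 with vehicle.

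The other 6 tested Adamts genes were not called in any comparison. Adamts3 encodes a procollagen N-proteinase, and Adamts8 and Adamts15 belong with the proteoglycan-cutting group. Adamts12 encodes a protease that cuts cartilage oligomeric matrix protein, Adamts10 one that acts on fibrillin microfibrils, and Adamts16 is a less studied member. Their log2 changes lay between -0.24 and 0.70 after DNFB and between 0.07 and 0.84 after BAC. Adamts8 had the highest value in each, but 2 of its vehicle arrays and 1 DNFB array lay below their 40th percentile. For Adamts10 and Adamts15 the DNFB arrays lay below the BAC arrays without overlap (-0.48 and -0.64, limma adjusted p = 0.0846 and 0.136).

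None of the 5 Adamtsl genes was called. Adamtsl2 and Adamtsl4 encode glycoproteins that bind fibrillin microfibrils. Adamtsl2 read 83.8, 23.0 and 91.6 in DNFB arrays, 161, 165 and 98.8 in BAC arrays, and 89.9, 88.4 and 66.5 in vehicle arrays, and DNFB replicate 2 was the lowest. Its DNFB against BAC difference was -1.05 ± 0.36 (limma adjusted p = 0.0995), and without DNFB replicate 2 it was -0.58 (adjusted p = 0.303). Across the 5 genes the changes lay between -0.37 and 0.25 after DNFB and between -0.20 and 0.67 after BAC. The lowest of these after DNFB is that of Adamtsl2, which was 0.10 without DNFB replicate 2.

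**Figure D2:**
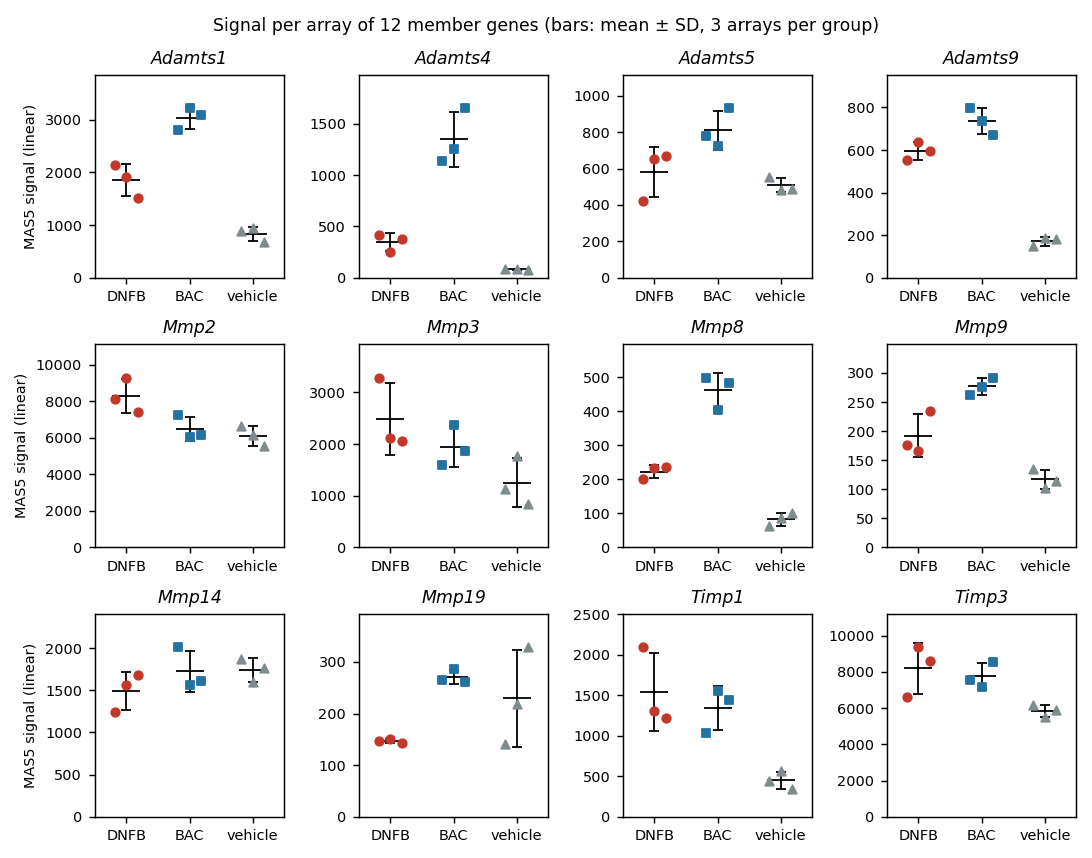
MAS5 signal on a linear axis from 0 for 12 member genes, with DNFB, BAC and vehicle from left to right. Points are arrays, the horizontal mark is the mean and the bar the SD of 3 arrays. Adamts4 arrays sit at 252 to 415 after DNFB, 1136 to 1651 after BAC and 77.5 to 85.2 with vehicle, while Timp1 arrays of the chemicals overlap each other above the vehicle arrays.

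Among the collagenases, Mmp8 (Entrez gene 17394) encodes neutrophil collagenase, which is stored in neutrophil granules. It read 200.4, 232 and 235 in DNFB arrays, 497, 402 and 483 in BAC arrays, and 62.4, 84.7 and 100.1 in vehicle arrays. The 3 groups did not overlap. The log2 change was 1.29 ± 0.18 after DNFB (limma adjusted p = 0.000195) and 2.29 ± 0.18 after BAC (adjusted p = 5.23e-07), and DNFB lay below BAC by -0.998 ± 0.18 (adjusted p = 0.00363). Mmp13, collagenase 3, did not pass the filter. It read 26.5, 3.06 and 14.7 in DNFB arrays, 48.4, 88.5 and 68.9 in BAC arrays, and 15.7, 39.6 and 22.5 in vehicle arrays. All 3 BAC arrays were above the other 6, and 2 of them exceeded the 40th percentile of their array. The DNFB and vehicle arrays were all below that percentile, so the main fit gives no change. Without the filter, DNFB against BAC gave -1.51 ± 0.38 (limma adjusted p = 0.0431) and BAC against vehicle 1.02 ± 0.38 (adjusted p = 0.122). At such signals background could not be told from low signal. The rodent collagenases Mmp1a and Mmp1b, related to human interstitial collagenase, averaged 13.2 to 38.3 in every group.

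Of the gelatinases, Mmp9 (gelatinase B, which neutrophils also carry in granules) read 177, 165 and 234 in DNFB arrays, 263, 276 and 291 in BAC arrays, and 135, 103 and 113 in vehicle arrays. Each DNFB array was above each vehicle array and below each BAC array. It rose by 0.64 ± 0.18 after DNFB (limma adjusted p = 0.0296) and by 1.15 ± 0.18 after BAC (adjusted p = 0.000557). DNFB against BAC gave -0.51 ± 0.18 (adjusted p = 0.115). The other probe set was called after DNFB (1.12) and BAC (2.002). The call after DNFB was lost without DNFB replicate 3 (0.50, adjusted p = 0.127), vehicle replicate 2 (0.56, adjusted p = 0.0893) or vehicle replicate 3 (0.62, adjusted p = 0.0844), and under 3 other settings.

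Neutrophil markers are given beside Mmp8 and Mmp9. Of 14 markers listed, 11 were tested, of which 6 rose after DNFB and 7 after BAC, and none fell. S100a9 (3.03 after DNFB and 3.74 after BAC) and S100a8 (2.88 and 3.58) rose most. Which cells of the skin gave the marker signals was not tested. Their summed signal was 11737 to 21921 in DNFB arrays, 21178 to 29842 in BAC arrays and 1712 to 6329 in vehicle arrays. Camp, a granule protein gene, lay below the 40th percentile in every array, and no marker was at 0. In DNFB against BAC 3 of the markers were lower, Cxcr2, a chemokine receptor (-1.29), Lcn2, lipocalin-2 (-1.12), and Csf3r, a growth factor receptor (-0.89). The part of neutrophils in the Mmp8 and Mmp9 values was not tested.

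Mmp2 encodes gelatinase A, made by fibroblasts in most tissues. It read 8146, 9278 and 7408 in DNFB arrays, 7255, 6037 and 6154 in BAC arrays, and 6630.0, 6133 and 5556 in vehicle arrays. The DNFB arrays were above all others. It rose after DNFB by 0.44 ± 0.11 (limma adjusted p = 0.0173), and its other probe set gave 0.51 (adjusted p = 0.00742). After BAC the change was 0.08 ± 0.11 (adjusted p = 0.675), and DNFB against BAC gave 0.35 ± 0.11 (adjusted p = 0.0767). The DNFB call was lost without DNFB replicate 2 (0.35, adjusted p = 0.0870), without vehicle replicate 3 (0.37, adjusted p = 0.0803) and with either other scaling of the arrays (0.28 and 0.42, adjusted p = 0.0967 and 0.0888). It was also lost without the intensity trend (limma adjusted p = 0.0908). Of 12 fibroblast markers, 4 rose after DNFB and 8 were not called. After BAC, where Mmp2 was not called, 2 rose and 10 were not called. None fell in either comparison. Their summed signal was 85374 to 95378 in DNFB arrays, 76709 to 87890 in BAC arrays and 67482 to 76226 in vehicle arrays. Basal keratinocyte markers fell in 4 of 7 cases after DNFB and 2 of 7 after BAC, with sums of 22542 to 26219, 26832 to 31327 and, in vehicle arrays, 32817 to 33248. The part of these cell types in the Mmp2 values was not tested.

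Mmp3, stromelysin-1, degrades proteoglycans and activates other MMP precursors. It read 3282, 2119 and 2053 in DNFB arrays, 1594, 2377 and 1870.2 in BAC arrays, and 1134, 1776 and 839.7 in vehicle arrays. The DNFB arrays were above the vehicle arrays, and the BAC arrays overlapped both. It rose after DNFB by 1.02 ± 0.23 (limma adjusted p = 0.00794). The change after BAC was 0.68 ± 0.23 (adjusted p = 0.0632), and DNFB against BAC gave 0.33 ± 0.23 with a 95% interval of -0.16 to 0.83. Vehicle replicate 2 was the highest vehicle array, and without it the change was 1.30 after DNFB (adjusted p = 0.000683) and 0.97 after BAC (adjusted p = 0.00604). Without vehicle replicate 3, the lowest vehicle array, the change after BAC was 0.43 (adjusted p = 0.252). The BAC change passed with the replicate block (0.68, adjusted p = 0.0449), and the DNFB call was lost without the intensity trend (adjusted p = 0.0710). Mmp10, stromelysin-2, read 120.3, 69.9 and 95.0 in DNFB arrays, 30.2, 93.3 and 78.4 in BAC arrays, and 63.0, 81.8 and 60.2 in vehicle arrays, and was not called.

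Mmp19, an MMP found in many tissues including epidermis, read 146, 150.4 and 142 in DNFB arrays, 265, 286 and 260.1 in BAC arrays, and 141, 219 and 328 in vehicle arrays. The chemicals did not overlap each other, and the vehicle arrays spanned both. DNFB was lower than BAC by -0.82 ± 0.23 (limma adjusted p = 0.0407). That call was lost when any 1 DNFB or BAC array was left out (-0.85 to -0.78, adjusted p = 0.0788 to 0.132). It was also lost with either other scaling of the arrays (limma adjusted p = 0.0502 and 0.061) and without the intensity trend (0.113). In all, 12 of 20 alternatives lost it. The other Mmp19 probe set gave -0.79 ± 0.27 (limma adjusted p = 0.110 among all probe sets) and was not called. Without vehicle replicate 1 Mmp19 was lower after DNFB than with vehicle (-0.81, adjusted p = 0.0207), while without vehicle replicate 3 the change was -0.25 (adjusted p = 0.548). With all arrays it was -0.53 ± 0.23 (adjusted p = 0.151).

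The remaining MMP genes were not called. Mmp14, which encodes the membrane protease MT1-MMP that activates the MMP2 precursor, read 1244, 1563 and 1676 in DNFB arrays, 2008, 1563 and 1605 in BAC arrays, and 1875, 1594 and 1759.8 in vehicle arrays, all overlapping. Its change was -0.23 ± 0.13 after DNFB and -0.02 ± 0.13 after BAC. Of its other probe sets, 1 gave -0.77 ± 0.24 after DNFB (limma adjusted p = 0.0552 among all probe sets) and -0.24 ± 0.24 after BAC, and the other gave 0.01 and -0.14. Mmp12, macrophage elastase, read 50.6, 59.9 and 8.17 in DNFB arrays, 59.2, 93.0 and 124 in BAC arrays, and 11.04, 32.0 and 49.7 in vehicle arrays, and 2 DNFB arrays and all 3 vehicle arrays lay below their 40th percentile. It was not called after BAC (limma adjusted p = 0.120). Beside it, 4 of 12 monocyte and macrophage markers rose after DNFB and 5 after BAC, and none fell. The membrane-type MMPs Mmp16, Mmp17 and Mmp24, the stromal Mmp11 and the membrane-bound Mmp23 had changes between -0.29 and 0.49 in the comparisons with the vehicle. Matrilysin, Mmp7, and the enamel protease Mmp20 averaged 14.6 to 32.2 in every group.

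In RefSeq GRCm38.p6 the 9 members Mmp13, Mmp12, Mmp1b, Mmp3, Mmp1a, Mmp10, Mmp8, Mmp20 and Mmp7 follow each other on chromosome 9. Between Mmp8 and Mmp20 lies Mmp27, which is not analysed here. Of these neighbours, 2 were called with either chemical, Mmp3 after DNFB and Mmp8 after both, and 5 did not pass the filter. RefSeq promoter sequence was matched for 27 of the 42 members, in 30 windows of 250 bases before the start of the gene. The 15 members without a window were not searched. They include Adamts4, Adamts5, Mmp2, Mmp9 and Mmp19, each called in at least 1 comparison, so the motif counts do not cover these genes. Both strands were searched for the AP-1 motif TGANTCA, the ETS motif CAGGAAG and an NF-kB motif. AP-1 letters were present in 8 of the 30 windows (26.7%), beside 6.75% of 32851 promoter windows of the same length. All 8 belong to genes of the cluster, and 0 of the 18 other members with a window held them. Neighbours in 1 cluster cannot be taken as independent of each other, and the shares were not compared by a test. NF-kB letters were in none of the 30 windows, beside 4.11% of all, and ETS letters in 7 (23.3%), beside 10.8% of all. A match describes letters only, and no match says nothing of whether the factor binds.

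The 100 bases before the start of each clustered gene are printed because they show where these letters lie relative to the start, and which gene has none. Sequences run 5′ to 3′ on the gene's strand, from RefSeq GRCm38.p6, and capitals mark the AP-1 motif. Where RefSeq has more than 1 start, the one whose window holds the motif is shown. Windows are on the plus strand except that of Mmp1b, and lie at chr9:7272414-7272513 for Mmp13, chr9:7347274-7347373 for Mmp12, chr9:7388027-7388126 for Mmp1b, chr9:7445722-7445821 for Mmp3, chr9:7464041-7464140 for Mmp1a, chr9:7502242-7502341 for Mmp10, chr9:7558329-7558428 for Mmp8, chr9:7628131-7628230 for Mmp20 and chr9:7691990-7692089 for Mmp7.
Mmp13: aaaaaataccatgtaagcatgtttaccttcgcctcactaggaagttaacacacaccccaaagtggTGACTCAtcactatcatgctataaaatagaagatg
Mmp12: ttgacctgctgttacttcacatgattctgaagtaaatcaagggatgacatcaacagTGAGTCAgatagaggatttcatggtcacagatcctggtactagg
Mmp1b: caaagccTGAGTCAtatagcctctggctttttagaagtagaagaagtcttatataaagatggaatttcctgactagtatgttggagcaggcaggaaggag
Mmp3: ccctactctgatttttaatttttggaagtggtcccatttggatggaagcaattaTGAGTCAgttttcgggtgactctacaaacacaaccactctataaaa
Mmp1a: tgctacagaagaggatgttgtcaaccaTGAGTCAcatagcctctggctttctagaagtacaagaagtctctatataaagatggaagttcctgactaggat
Mmp10: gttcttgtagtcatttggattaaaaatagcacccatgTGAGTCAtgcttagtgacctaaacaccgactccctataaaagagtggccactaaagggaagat
Mmp8: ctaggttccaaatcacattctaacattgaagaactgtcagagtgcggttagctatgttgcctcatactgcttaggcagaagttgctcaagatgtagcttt
Mmp20: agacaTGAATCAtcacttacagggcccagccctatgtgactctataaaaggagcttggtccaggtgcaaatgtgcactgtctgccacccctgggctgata
Mmp7: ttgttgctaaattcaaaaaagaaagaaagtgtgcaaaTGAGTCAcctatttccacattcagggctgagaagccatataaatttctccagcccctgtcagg
Relative to the RefSeq start, the motif begins 46 bases before it in Mmp3, 35 bases in Mmp13, and between 44 and 95 bases in the other 6. Whether these starts are the ones used in ear skin was not tested. The motif reads TGAGTCA in 6 genes, TGACTCA in Mmp13 and TGAATCA in Mmp20. Of the 4 tested genes of the cluster, Mmp3 has the motif and was called after DNFB, and Mmp10 has it and was not called. Mmp12, also not called, has it in 1 of its 2 windows. Mmp8 was called after both chemicals and has no match in its 250 bases.

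**Figure D3:**
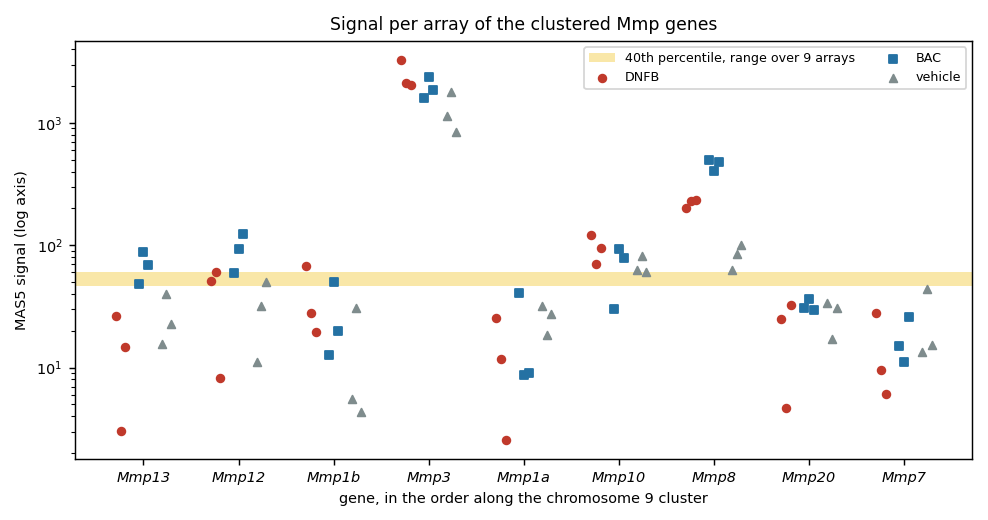
MAS5 signal per array on a log axis for the 9 clustered Mmp genes, in their order along chromosome 9, with DNFB, BAC and vehicle arrays from left to right within each gene. The band spans the 40th percentiles of the 9 arrays, 46.2 to 60.7. Mmp3 and Mmp8 lie above the band in every array, and Mmp1a, Mmp20 and Mmp7 lie below it in every array. Signals of different genes come from different probes and are not compared.

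Of the inhibitors, Timp1 (Entrez gene 21857) encodes the secreted inhibitor that is induced in wounds and inflammation. It read 2092, 1308 and 1215 in DNFB arrays, 1033, 1551 and 1437 in BAC arrays, and 445, 561 and 343 in vehicle arrays. Every treated array was above every vehicle array, and the chemicals overlapped. It rose by 1.72 ± 0.21 after DNFB (limma adjusted p = 5.27e-05) and by 1.55 ± 0.21 after BAC (adjusted p = 0.000130). DNFB against BAC gave 0.18 ± 0.21 (adjusted p = 0.680), with a 95% interval of -0.27 to 0.62 before adjustment. The ETS letters CAGGAAG occurred at 2 places in the 250 bases before its start, which are printed because no other member window held them more than once. Capitals mark the motif in this window at chrX:20869916-20870165, plus strand, RefSeq GRCm38.p6.
Timp1: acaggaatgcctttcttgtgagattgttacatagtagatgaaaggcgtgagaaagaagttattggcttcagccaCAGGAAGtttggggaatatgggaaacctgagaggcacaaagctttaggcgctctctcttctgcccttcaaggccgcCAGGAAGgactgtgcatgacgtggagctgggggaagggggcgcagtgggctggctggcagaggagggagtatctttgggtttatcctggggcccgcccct
The first begins 176 bases and the second 100 bases before the RefSeq start.

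Timp3, which stays bound to the matrix and inhibits ADAMTS4 and ADAMTS5 as well as MMPs, read 6628, 9347 and 8590.3 in DNFB arrays, 7560.4, 7179 and 8545 in BAC arrays, and 6143, 5509 and 5881 in vehicle arrays. All treated arrays were above the vehicle arrays, and the chemicals overlapped. It rose by 0.47 ± 0.12 after DNFB (limma adjusted p = 0.0173) and by 0.41 ± 0.12 after BAC (adjusted p = 0.0372). The call after BAC was lost when any 1 BAC or vehicle array was left out (0.33 to 0.46, adjusted p = 0.0521 to 0.138). The call after DNFB was lost without DNFB replicate 2 (0.37, adjusted p = 0.0899), DNFB replicate 3 (0.43, adjusted p = 0.0667) or vehicle replicate 2 (0.43, adjusted p = 0.0512). Both calls were also lost with either other scaling of the arrays (limma adjusted p = 0.0635 and 0.0845 after DNFB, 0.0919 and 0.216 after BAC). They were lost without the intensity trend as well (0.0942 and 0.130). Without the filter on dim genes the BAC call was lost (limma adjusted p = 0.0750). With the mean of its 4 probe sets the DNFB change was 0.21 (adjusted p = 0.281). The probe sets disagreed: 1 of them averaged 1618 ± 326 after DNFB, 2839.9 ± 373 after BAC and 1926 ± 332 with vehicle (SD, n = 3 each), and it was called lower in DNFB than in BAC (-0.82, adjusted p = 0.00622), where the brightest probe set gave 0.07.

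Timp2, a widely expressed inhibitor that also helps MT1-MMP activate the MMP2 precursor, read 6778, 7907 and 9635 in DNFB arrays, 7762, 6143 and 8333 in BAC arrays, and 8631, 7949 and 8327 in vehicle arrays. For this brightest probe set the groups overlapped. Its changes were -0.05 ± 0.13 and -0.17 ± 0.13 (limma adjusted p = 0.864 after DNFB and 0.430 after BAC). None of the gene's 5 tested probe sets was called in any comparison, but they disagreed after DNFB. In 1 of them the DNFB arrays (7185 to 8815) lay above the vehicle arrays (6017 to 6396), at 0.37 ± 0.12 (limma adjusted p = 0.0531 among all probe sets). In another the DNFB arrays (1987 to 3168) lay below the vehicle arrays (3441 to 3785), at -0.52 ± 0.17 (limma adjusted p = 0.0686). Timp4 read 656, 1034 and 1024 in DNFB arrays, 699, 506 and 591 in BAC arrays, and 916, 813 and 575 in vehicle arrays. DNFB against BAC gave 0.57 ± 0.19 (adjusted p = 0.0971). This difference passed without DNFB replicate 1 (0.78, adjusted p = 0.0239). With any other DNFB or BAC array left out it lay between 0.45 and 0.68 (adjusted p = 0.0854 to 0.293). The other Timp4 probe set gave 0.22 ± 0.22 (limma adjusted p = 0.634 among all probe sets).

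**Figure D4:**
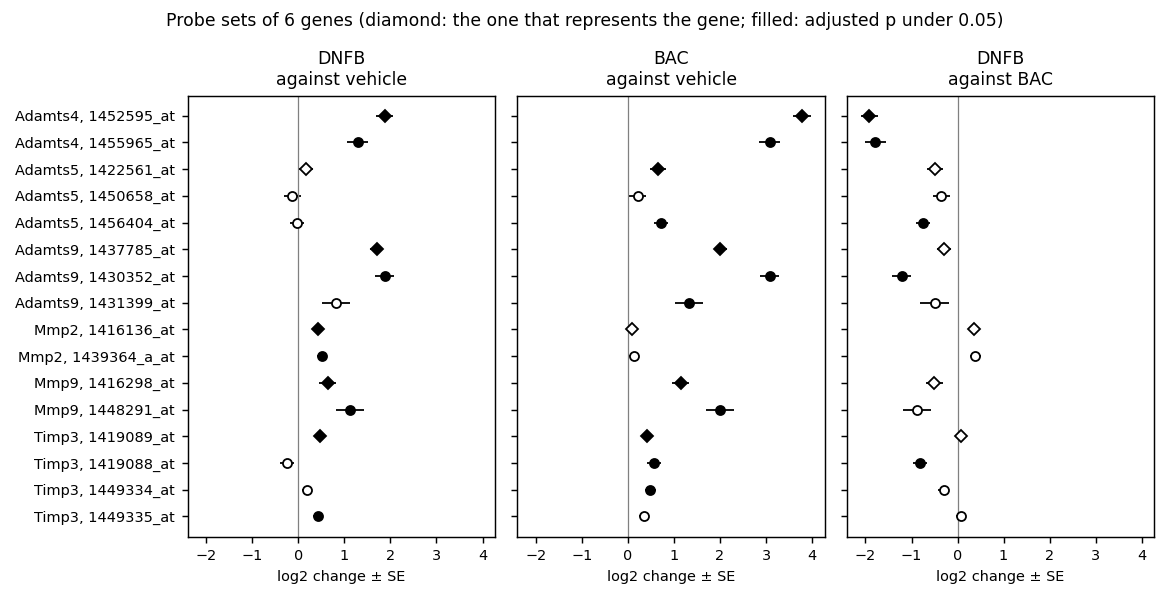
Log2 change with SE of each tested probe set of Adamts4, Adamts5, Adamts9, Mmp2, Mmp9 and Timp3, fitted among all probe sets, with DNFB against vehicle, BAC against vehicle and DNFB against BAC from left to right. Diamonds are the probe sets that represent the gene and filled symbols have an adjusted p under 0.05. For DNFB against BAC, Adamts9 gives -0.29, -1.21 and -0.50 and Timp3 gives 0.07, -0.82, -0.30 and 0.08.

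Probe set by probe set, 55 of the 78 passed the filter. Of these 14 rose after DNFB and 15 after BAC, and 7 were lower in DNFB than in BAC, with none in the opposite direction. Over all probe sets 10.4%, 10.2% and 4.96% were called in the 3 comparisons, in either direction.

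Genes that act with these enzymes were taken from lists. Among activators and other inhibitors, 7 of 19 tested genes rose after DNFB and 1 fell, and 7 rose after BAC and none fell (median log2 change 0.31 and 0.12). Plaur, the urokinase receptor, which gathers plasminogen activation at the cell surface, rose by 1.68 ± 0.22 after DNFB and 1.48 ± 0.22 after BAC. Thbs1, a matrix glycoprotein that binds MMPs, rose by 0.88 ± 0.16 and 1.60 ± 0.16. Serpinb2, an inhibitor of plasminogen activators, changed by -0.86 ± 0.12 after DNFB and was lower in DNFB than in BAC (-1.30 ± 0.12). Lcn2, which binds MMP9 and is also in the neutrophil list, rose by 1.98 ± 0.23 after BAC. Lcn2 after DNFB and Serpinb2 after BAC were not among the 3 largest called changes of their comparison. Their values are not given for that reason, and no lack of change is meant.

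Of 14 other tested metalloproteinases of the same superfamily, 2 rose after DNFB and 3 after BAC, and none fell. Adam8, a membrane protease of leukocytes, rose by 0.78 ± 0.15 after DNFB and 1.24 ± 0.15 after BAC, and Pappa2, which cuts growth factor binding proteins, by 0.49 ± 0.15 and 0.56 ± 0.15. Of 23 tested matrix substrates, 8 rose after DNFB and 4 after BAC, and none fell. Tnc, the wound glycoprotein tenascin-C, rose by 1.16 ± 0.15 and 0.64 ± 0.15, and Col4a2, a basement membrane collagen, by 0.56 ± 0.12 and 0.53 ± 0.12. Of 9 tested chondrocyte markers, which include the aggrecanase substrate Acan, 1 rose after DNFB (Comp, also in the substrate list, 0.56 ± 0.14) and none after BAC. After DNFB 5 of 10 skeletal muscle, 4 of 7 mast cell and 2 of 10 endothelial markers also rose, and 1 of 3 T cell and 4 of 8 differentiated keratinocyte markers fell. After BAC 1 endothelial marker rose and 5 differentiated keratinocyte markers fell. Beside these counts, 6.76% of all tested genes were called higher and 7.08% lower after DNFB. The shares were 6.59% and 7.64% after BAC, and 3.14% and 3.66% for DNFB against BAC. They stand equally beside the other lists and the markers given with Mmp2, Mmp8, Mmp9 and Mmp12. Counts of 1, 2 or 3 genes in lists this short are not read as a response, and no list was tested as a set.

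Of 25 tested cytokines, receptors and transcription factors that act upstream of MMP and ADAMTS genes, 16 rose and 1 fell after DNFB, and 19 rose and none fell after BAC. In DNFB against BAC 7 were lower and none higher, including the NF-kB subunit gene Rel (-1.90 ± 0.21), the cytokine gene Osm (-1.71 ± 0.19) and Il1b (-1.65 ± 0.18). The largest rises were those of Il6, 4.07 ± 0.21 after DNFB and 5.34 ± 0.21 after BAC, and Il1b, 2.51 ± 0.18 and 4.16 ± 0.18. Next came the AP-1 subunit gene Fosl1 after DNFB (1.92 ± 0.14) and Osm after BAC (2.85 ± 0.19). These lists share the vehicle arrays with the members' comparisons, and no link between the lists and the members was tested.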

How the data were processed

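TRIzol and an RNeasy kit gave total RNA, which was made into biotinylated cRNA for the arrays, according to the labels. What the authors deposited is an intensity, the linear MAS5 signal of every probe set, and the submitters' processing notes name Affymetrix Expression Console without a version. The mean without the highest and lowest 2% was 250.001 in each of the 9 arrays, so each had been scaled to a common target. No detection calls, scan dates or batches were used. Precision is limited by the number of arrays.

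Of 45101 probe sets, 64 controls were left out, 34945 had 1 gene symbol, 932 had several, and 9160 have no gene in the annotation used. Symbols were checked through RefSeq GRCm38.p6 gene identifiers (34741 matched, 0 changed). limma 3.58.1 in R 4.3.3 fitted log2(signal + 16) with a mean per group over all 9 arrays and an intensity trend, two-sided, and the fit was tested on simulated data. An exact permutation test of 3 against 3 cannot go below p = 0.1 and was not run. Members, lists and motifs were chosen with earlier results of these data known. Members called in any comparison were named, with every array's value for those changed at least 2-fold and for 12 genes whatever their values. Array values of Mmp10, Mmp12, Mmp19, Adamtsl2 and Timp4, and the results given for Adamts10 and Adamts15, were chosen after their values were seen. From the lists, up to 3 called genes with the largest change were eligible. Protein sequences were not used here. Alternatives covered the pseudocount, filter, scaling, trend, probe set rule, arrays fitted, the replicate block and each array left out.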

Additional observations from a re-analysis of the deposited data

How the results depend on the processing

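Each result was recomputed under 20 alternatives. Of the members called after DNFB, Adamts1, Adamts4, Adamts9, Mmp8 and Timp1 passed under all 20; after BAC, Adamts1, Adamts4, Adamts9, Mmp8, Mmp9 and Timp1 did; and for DNFB against BAC, Adamts4 and Mmp8 did. No called member reversed. With 1 array left out, the number of members called was 7 to 10 after DNFB, 6 to 9 after BAC and 3 to 4 for DNFB against BAC, and the number of all tested genes called was 1249 to 1929, 1225 to 2148 and 513 to 999. The lowest of these came when vehicle replicate 3, vehicle replicate 1 and BAC replicate 2 were left out; counts were also over 1.5 times lower without vehicle replicate 1 after DNFB (1276) and without DNFB replicate 2 (608) or 3 (571) for DNFB against BAC. Without the intensity trend, 1202 genes were called after DNFB and 402 for DNFB against BAC, where 2 members, Adamts4 and Mmp8, were left; the cause was not tested. With arrays centred on their median, 606 genes were higher and 1178 lower after BAC (34% higher, beside 46.3%). Replicates that share a number did not deviate together (correlations of -0.06 to 0.11), so the numbers were not taken as pairs. With the replicate block, 1874, 1939 and 860 genes and 9, 9 and 4 members were called, and Mmp3 after BAC was the call gained. Without the filter on dim genes, Mmp13 was a call gained for DNFB against BAC, and the Mmp19 call was lost. Signals under the 40th percentile limit what can be said of the 10 untested members.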
